A study of Mus musculus with 16 samples.

Results

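Spleens of mice that had been under imiquimod cream for 5 days were set against spleens under the same cream for 1 day. The late spleens held far more RNA of red cell precursor genes, more RNA of mitosis genes, and far less RNA of interferon-stimulated and inflammatory genes. The comparison takes 8 of the 16 libraries of the series, chosen by their labels: the 4 libraries of day 5 (WT_D5 and KO_D5) against the 4 of day 1 (WT_D1 and KO_D1), with genotype as a covariate. WT is the wild type C57BL/6 mouse, and KO is the PKR knockout, which lacks the double-stranded RNA-activated kinase encoded by Eif2ak2. All mice of these groups were male and received 62.5 mg of 5% imiquimod cream (Aldara) daily on shaved back skin, so day 1 and day 5 differ in the number of doses and in time, which cannot be told apart. Their ages, the design of the knockout allele and the hour of sampling were not given in the sources used here, and no group received cream without imiquimod. The series was designed to examine PKR and circular RNA in this psoriasis model. Each library pooled RNA from 2 spleens of 2 mice, and each group had 2 libraries, so the spread between libraries is that between pools of 2 mice. The spleens were pressed through a 70-µm mesh and treated with red cell lysis buffer, so mature red cells were depleted before RNA was extracted.

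Imiquimod activates Toll-like receptor 7, which induces type I interferon and inflammatory cytokines in dendritic cells and macrophages. Interferon-stimulated genes are switched on through interferon-stimulated response elements (ISRE) in their promoters. The mouse spleen also serves as a reserve site of red cell production: under inflammatory or anaemic stress, progenitors expand there under erythropoietin, driven by the transcription factors GATA1, TAL1 and KLF1, and are nursed by red pulp macrophages that recycle iron.

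Promoters of the most changed gene classes are shown first, because members of those lists moved together. Windows of the RefSeq promoter table (GRCm38.p6, the assembly of mm10) matched 9026 of the 17887 genes tested. The motifs searched on both strands of 300 bases, from 250 before to 50 after the start, were the ISRE core GAAA, any 2 bases, GAAA, the GATA core AGATAA and the CACCC box CCACACCC. The ISRE core was found in 16 of 32 windows of the interferon-stimulated genes (50%), in 10 of 14 windows of the guanylate-binding protein and interferon gamma list (71.4%) and in 3.26% of all 9026 windows. The GATA core was found in 9 of 41 windows of the red cell membrane, globin and haem lists (22.0%) and in 6.53% of all windows, and also in 6 of 14 windows of the guanylate-binding protein list (42.9%). The CACCC box stood in 3 of the 41 erythroid windows (7.32%) and in 3.88% of all. It was more frequent in the interferon-stimulated genes, at 4 of 32 windows (12.5%). The 3 copies of the ISRE core in the Isg15 window overlap each other. The bases before the start of 4 genes that fell and 2 that rose are printed 5′ to 3′ on the gene's strand, with the ISRE core (Ifit3, Isg15, Cxcl10, Ifit1) or the GATA core (Alas2, Tal1) of either strand in capitals. The windows are chr19:34583279-34583528 (plus strand) for Ifit3, chr4:156200819-156201068 (minus strand) for Isg15, chr5:92348890-92349139 (minus strand) for Cxcl10, chr19:34640639-34640888 (plus strand) for Ifit1, chrX:150547167-150547416 (plus strand) for Alas2 and chr4:115056176-115056425 (plus strand) for Tal1. Of 6 red cell genes whose bases before the start were searched for the GATA core, Alas2 and Tal1 held it and Klf1, Gata1, Hemgn and Hba-a1 did not. The search took AGATAA alone. TGATAA, which differs in the first base, was not counted and stands before the start of Klf1 (on the opposite strand), Hemgn and Hba-a1. The absence of the core is therefore not the absence of every GATA site. The cores begin 156 and 122 bases before the start of Ifit3, 78, 72 and 66 before that of Isg15, 213 before that of Cxcl10, 104 and 85 before that of Ifit1, 86 before that of Alas2 and 205 before that of Tal1. The start here is that of the promoter window, which can differ from the transcript start given with a gene below. For Alas2 and Klf1 the start of the window lies after that transcript start. A match describes the letters of the window and no binding was measured.
Ifit3: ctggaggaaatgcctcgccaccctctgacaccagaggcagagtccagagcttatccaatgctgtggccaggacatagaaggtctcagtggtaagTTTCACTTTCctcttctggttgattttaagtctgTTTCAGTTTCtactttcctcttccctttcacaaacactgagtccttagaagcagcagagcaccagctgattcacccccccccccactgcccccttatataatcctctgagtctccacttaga
Isg15: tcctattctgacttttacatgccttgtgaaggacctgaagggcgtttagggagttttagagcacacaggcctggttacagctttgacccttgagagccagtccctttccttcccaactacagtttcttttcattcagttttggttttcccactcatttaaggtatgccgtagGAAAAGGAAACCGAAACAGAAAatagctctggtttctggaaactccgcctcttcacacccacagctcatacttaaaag
Cxcl10: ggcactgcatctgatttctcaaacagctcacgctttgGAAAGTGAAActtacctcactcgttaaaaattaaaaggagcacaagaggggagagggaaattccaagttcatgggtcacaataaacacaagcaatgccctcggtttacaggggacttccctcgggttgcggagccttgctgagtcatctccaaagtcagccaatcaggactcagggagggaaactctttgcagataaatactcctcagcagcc
Ifit1: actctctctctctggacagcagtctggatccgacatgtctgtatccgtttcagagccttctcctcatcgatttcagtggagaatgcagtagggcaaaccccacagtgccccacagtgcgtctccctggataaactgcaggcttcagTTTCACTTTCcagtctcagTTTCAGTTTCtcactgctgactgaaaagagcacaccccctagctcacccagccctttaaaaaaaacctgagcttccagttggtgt
Alas2: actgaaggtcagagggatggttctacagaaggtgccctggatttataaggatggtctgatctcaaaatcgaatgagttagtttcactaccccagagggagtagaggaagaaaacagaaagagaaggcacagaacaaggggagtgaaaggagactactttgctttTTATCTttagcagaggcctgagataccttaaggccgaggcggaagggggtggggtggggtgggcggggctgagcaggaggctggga
Tal1: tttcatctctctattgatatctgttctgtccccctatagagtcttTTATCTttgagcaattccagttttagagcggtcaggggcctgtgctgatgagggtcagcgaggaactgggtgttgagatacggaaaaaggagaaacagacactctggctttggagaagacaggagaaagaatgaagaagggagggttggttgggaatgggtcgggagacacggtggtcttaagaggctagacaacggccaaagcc

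Total fragments per library ranged from 35026754 to 65035498 among the 8 libraries. CPM below stands for counts of the 1 transcript kept for a gene, divided by total fragments and scaled by the trimmed mean of M-values (TMM). CPM does not correct for gene length and compares libraries within a gene. Ranges such as 10–20 CPM span the libraries of a day. The day 1 wild type libraries stood apart before any test. Their TMM factors were 1.17 and 1.16, against 0.896 to 1.03 in the other 6, and their transcript counts summed to 2.08 and 2.12 times the total fragments, against 1.51 to 1.80 in the others. Main counts are therefore also given without them, or within the knockout, whose contrast does not use them. Without them no change can be taken within the wild type. That fit therefore compares day 5 with day 1 in the knockout alone, with 2 libraries a day. A call lost there can reflect those libraries, the genotype or the smaller number of libraries, which cannot be told apart. The first principal component of the 8 libraries held 94.5% of the variance of the 2000 most variable genes and split the days, with day 1 at -51.8 to -39.5 and day 5 at 40.1 to 57. Across genes the 2 libraries of a group correlated at a Spearman rho between 0.991 and 0.993, and their counts differed by more than sampling noise. B cell (Cd79a, Ms4a1), T cell (Cd3e, Cd3d, Trac) and red pulp macrophage markers (Spic, Vcam1, Slc40a1) were present in all 8 libraries, as the label spleen implies, with Cd79a at 93.2 to 157 FPKM, the deposited level per transcript length. The liver genes Alb and Ttr were at or near 0, with a highest value of 0.0243 FPKM, and the skin keratins Krt14, Krt10 and Krt5 stayed at or below 0.176 FPKM. The elastase Cela1, known from the pancreas, read 0.458 to 1.21 FPKM on day 1 and 5.51 to 7.98 FPKM on day 5, while the other 3 pancreatic genes checked (Cpa1, Prss2, Pnlip) stayed at or below 1.12 FPKM. These 3 were each highest in the second day 1 knockout library, at 0.429, 0.565 and 1.12 FPKM, and at 0 in the first. A trace of pancreas in that library was not tested. Eif2ak2 read 103 and 99 CPM in the wild type and 45 and 38.4 CPM in the knockout on day 1, and 30.4 and 31.4 against 16.8 and 19.7 CPM on day 5. It was lower in the knockout on both days but not absent, and which exons the allele removes was not given, so this level is only a partial check of the genotype labels.

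Of 17887 genes tested, 5400 were higher on day 5 (30.2% of those tested) and 5020 were lower (28.1%), or 58.3% in either direction, at an adjusted p under 0.05 (edgeR quasi-likelihood test, Benjamini-Hochberg), termed called from here on. A change of 2-fold or more was called for 2611 genes upward and 966 downward, and one of 8-fold or more for 532 upward and 78 downward. All 4 libraries of day 5 lay above all 4 of day 1 for 26.5% of the genes tested and below for 25.8%. Without both day 1 wild type libraries the counts were 4071 higher and 3559 lower. The balance of directions differed most in 1 alternative: limma on log2(FPKM + 1), which changes the test, the unit, the pseudocount and the scaling together, called 3674 higher and 7449 lower, so 33.0% of its calls were upward against 51.8% here, and the median over all genes moved from 0.013 to -0.114 log2. Size factors of DESeq2 in edgeR, which change the scaling alone, gave 5418 and 4997. Which choice in the limma fit moved the balance was not tested. The gene lists and the members described were chosen with earlier results of these data known, so their counts describe the members and are read against the background shares. In bulk RNA, fewer cells of a type and less RNA per cell cannot be told apart. Members named as the exceptions of a list were picked after their values were seen. Where no count without the day 1 wild type libraries stands beside a list, its counts of 6 or more calls were within 1.5 times of those given when these libraries were left out.

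**Figure D1:**
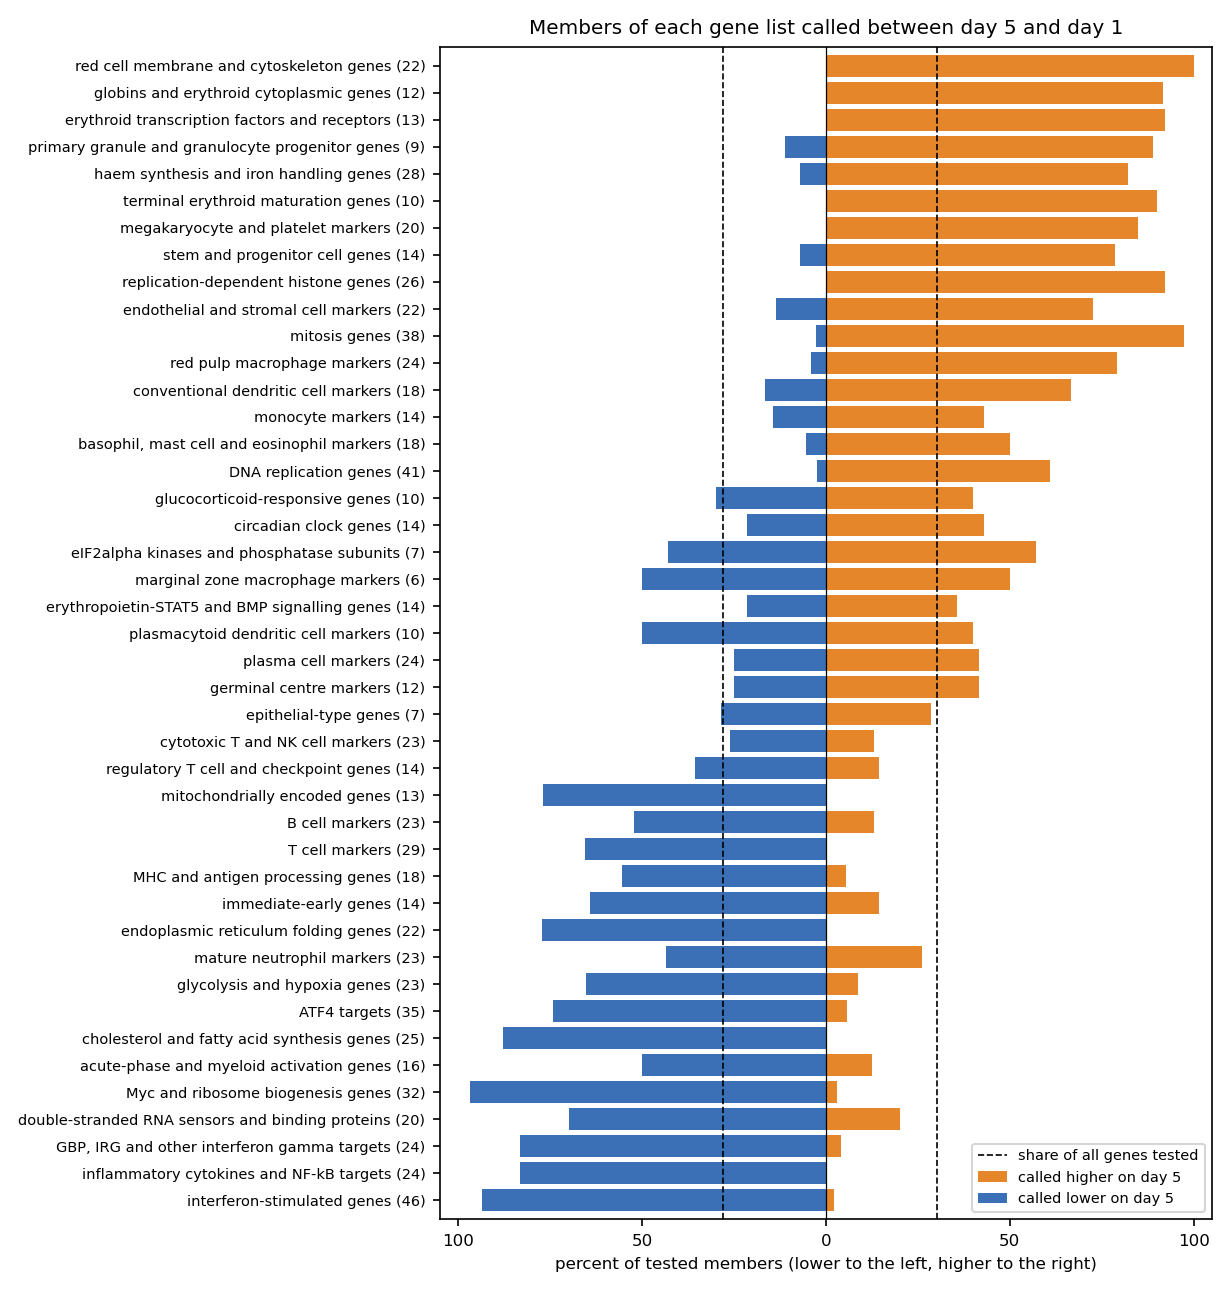
Percent of tested members of each list (number in brackets) called lower on day 5, to the left, or higher, to the right, in the comparison with genotype as covariate; lists are ordered by their median log2 change and dashed lines mark the shares of all 17887 genes tested. Red cell lists stand at the top with 91.7 to 100% of members higher in the uppermost pair, and interferon-stimulated genes at the bottom with 93.5% lower.

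Interferon-stimulated genes were lower on day 5 almost throughout the list: 43 of 46 tested members fell and 1 rose, with a median log2 change of -2.30, beside shares of 28.1% and 30.2% over all genes. Ifit3 (chromosome 19, 34583531 to 34588731 in mm10), which encodes an antiviral tetratricopeptide protein, read 168 and 118 CPM in the wild type and 99.6 and 71.7 CPM in the knockout on day 1. On day 5 it read 4.46 and 4.03 CPM (wild type) and 2.81 and 5.39 CPM (knockout). The 4 late libraries lie far below the 4 early ones, a fall by 4.74 ± 0.281 on the log2 scale (SE, adjusted p = 8.22e-06), or 26.8-fold. Ifit3b, a near-identical neighbour whose reads may be split with Ifit3, fell by 5.04, and Ifit1 fell from 33.1–68.8 to 1.94–6.54 CPM, by 3.68 log2. Isg15, the ubiquitin-like modifier, read 79.8 and 55.3 CPM in the wild type and 51 and 46.4 CPM in the knockout on day 1, and 11.4 and 6.19 CPM (wild type) and 12.7 and 13.6 CPM (knockout) on day 5. The groups do not overlap, and the change was -2.41 ± 0.304 log2 (adjusted p = 6.12e-04). Rtp4, a receptor transporter protein induced by interferon, fell by 3.64 ± 0.261 log2, and Irf7, the factor that amplifies interferon transcription, fell from 161–247 to 14.7–27.1 CPM. The riser was Isg20, an exonuclease (0.46 log2, adjusted p = 0.0134), and Rsad2 (0.79 log2, adjusted p = 0.117) and Cmpk2 (-0.35 log2, adjusted p = 0.15), which are neighbours in the genome, did not pass the test. As a sum over the list, day 1 libraries read 3712 to 5121 CPM and day 5 libraries 1219 to 1565 CPM. Untreated day 0 spleens averaged 1678 CPM in the wild type and 1679 CPM in the knockout, between the early and the late levels. Ifit3 itself read 10–13.1 CPM on day 0, above every day 5 library.

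Targets of interferon gamma followed the same direction. Of 24 tested members 20 fell and 1 rose, with a median of -1.49 log2. Gbp10, Gbp6 and Ifi47, GTPases that act against intracellular microbes, fell by 3.18, 2.36 and 2.28 log2, where reads of Gbp copies may be shared between them. Cxcl10, a chemokine that draws T cells (chromosome 5, 92346638 to 92348882), read 15.8 and 12.1 CPM in the wild type and 12.5 and 7.78 CPM in the knockout on day 1. On day 5 it read 0.656 and 0.892 CPM (wild type) and 0.662 and 0.825 CPM (knockout). Every late library lay under 1 CPM, a change of -3.98 ± 0.207 log2 (adjusted p = 5.21e-08), and day 0 stood at 0.875–0.959 CPM. Ciita, the master regulator of MHC class II genes, was the riser (0.51 log2, adjusted p = 2.86e-04), and Cxcl9 did not pass the test (-0.14 log2, adjusted p = 0.57). Ifng itself read 0.871–1.26 CPM on day 1 and 0.552–1.24 CPM on day 5 and was not called (adjusted p = 0.159). Of the MHC and antigen processing genes 10 of 18 fell and 1, H2-Oa, rose. The class I heavy chain H2-K1 fell by 1.01 log2, the peptide transporter Tap1 by 1.15 and the immunoproteasome subunit Psmb9 by 1.07.

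Sensors of double-stranded RNA include PKR itself. Of 20 tested members 14 fell and 4 rose. The oligoadenylate synthetases Oas2 and Oas1a fell by 3.14 and 2.26 log2, the RIG-I-like receptor Dhx58 by 2.71 and the Z-nucleic acid sensor Zbp1 by 2.42. The risers included Prkra, an activator protein of PKR (0.75 log2), Stau1 (0.41) and the adaptor Mavs (0.28). The 7 genes of the eIF2alpha list, the kinases and the phosphatase subunits, were split, with 4 higher and 3 lower, or 2 and 2 without the day 1 wild type libraries. Among the 4 kinases, each of which slows translation under a different stress, Eif2ak2 fell by 1.46 ± 0.11 log2 while Eif2ak1, the haem-regulated kinase of red cell precursors, rose by 1.63 ± 0.106 log2 (adjusted p = 2.26e-07). Eif2ak1 read 30.5 and 30.8 CPM in the wild type and 30.9 and 31.7 CPM in the knockout on day 1, and 84.4 and 74.9 CPM (wild type) and 125 and 106 CPM (knockout) on day 5. Its 4 early libraries were nearly equal and all late libraries were more than 2-fold higher. Eif2ak3, the kinase of the endoplasmic reticulum, changed by 0.26 log2 and Eif2ak4, the amino acid sensor, by -0.27. Ppp1r15a, which recruits the phosphatase that reverses the kinases, read 67.9–109 CPM on day 1 and 100.5–175 CPM on day 5, overlapping, and its call (adjusted p = 0.043) was lost in 9 of 21 alternative analyses, with an adjusted p of up to 0.146.

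ATF4, the transcription factor whose translation rises when eIF2alpha is phosphorylated, drives amino acid supply genes. Of 35 tested targets 26 fell and 2 rose, with a median of -0.62 log2. Slc7a3, a transporter of arginine and lysine, read 4.25 and 2.97 CPM in the wild type and 7.36 and 7.57 CPM in the knockout on day 1, and 0.341 and 0.28 CPM (wild type) and 0.166 and 0 CPM (knockout) on day 5. It was high in all early libraries and near the counting floor in all late ones, with a change of -4.63 ± 0.489 log2 (adjusted p = 6.67e-05). The pseudokinase Trib3 fell by 3.35 log2, the transsulfuration enzyme Cth by 3.17 and the mitochondrial folate enzyme Aldh1l2 by 3.14. Psat1 and Phgdh, enzymes of serine synthesis, fell by 1.98 and 1.59 log2. Atf4 fell by 0.53 log2 and Ddit3, which encodes CHOP, by 0.46 (adjusted p = 0.00176, and 0.0748 without the day 1 wild type libraries). Against the list, Asns, asparagine synthetase, rose by 0.80 ± 0.18 log2 (adjusted p = 0.00498), from 10.8–20.2 to 20.7–31.4 CPM, the other riser being Ppp1r15a. Bcat1, the cytosolic branched-chain aminotransferase, was among the 15 largest falls of all genes, from 18.5–34.6 to 1.27–1.65 CPM (-4.20 ± 0.175 log2).

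Inflammatory cytokines fell with them. Of 24 tested cytokine and NF-kB target genes 20 fell and 0 rose, with a median of -1.75 log2. Il6 (chromosome 5, 30013144 to 30019981) read 4.73 and 5.29 CPM in the wild type and 8.57 and 4.21 CPM in the knockout on day 1. On day 5 it read 0.367 and 0.484 CPM (wild type) and 0.331 and 0.412 CPM (knockout), which is within the day 0 range of 0.324–0.771 CPM for all 4 late libraries. The fall was 14-fold, 3.81 ± 0.269 on the log2 scale (adjusted p = 4.72e-07). Ccl12, a monocyte chemoattractant, read 0.464–0.77 CPM on day 1 and had no count in any day 5 library, so with a floor of 3 counts per library it was at least 7.85-fold lower. Ccl7, a chemokine of the same cluster, also had no count on day 5. Tnf fell by 1.97 log2, Il1b by 1.83, the anti-inflammatory cytokine Il10 by 2.27 and the interleukin 1 receptor antagonist Il1rn by 3.50. Acod1, which makes the antimicrobial metabolite itaconate, read 17 and 9.54 CPM in the wild type and 18.2 and 8.48 CPM in the knockout on day 1. Day 5 libraries read 0.472 and 0.612 CPM (wild type) and 0.221 and 0.698 CPM (knockout), all below 1, a change of -4.73 ± 0.427 log2 (adjusted p = 5.90e-05). Slfn4, a schlafen gene of activated myeloid cells, fell from 242–596 to 11.5–26 CPM, complement factor B (Cfb) from 49.2–95.2 to 3.15–6.93 CPM and Ly6i from 9.97–18.3 to 0.682–0.952 CPM. Among acute-phase and myeloid activation genes 8 of 16 fell, including Saa3 (-2.35 log2), and 2 rose, the scavenger receptor Marco (1.13) and the plasma protein Orm1 (1.57). The neutrophil alarmins S100a8 (131–282 against 108–173 CPM, adjusted p = 0.0805) and S100a9 (adjusted p = 0.112) did not pass, nor did Lcn2 (adjusted p = 0.301). Without the day 1 wild type libraries S100a8 (adjusted p = 8.42e-04) and S100a9 (adjusted p = 6.65e-04) were called lower, as they were without the second of those libraries alone (adjusted p = 1.13e-04 and 2.19e-04). The psoriasis cytokines Il17a, Il17f, Il22 and Il23a had too few counts to test, at most 0.289 CPM in any of the 8 libraries, the highest being Il17a in a day 5 wild type library, and Ifnb1 had none.

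Ribosome production genes were also lower late. Of 32 Myc and ribosome biogenesis genes 31 fell and 1 rose, with changes from -1.28 to 0.46 log2. Rrp9, Rrp12 and Tsr1, which process ribosomal RNA or assemble subunits, fell by 1.28, 1.20 and 1.23 log2 and Mybbp1a by 1.21, each by more than 2-fold with SE under 0.12. Myc itself fell by 0.73 log2. The riser was Odc1, ornithine decarboxylase (0.46 log2). Of 22 chaperone and quality control genes of the endoplasmic reticulum 17 fell and 0 rose. Hspa5, the chaperone BiP, read 611 and 648 CPM in the wild type and 501 and 506 CPM in the knockout on day 1, and 257 and 293 CPM (wild type) and 232 and 253 CPM (knockout) on day 5 (-1.12 ± 0.072 log2, adjusted p = 1.48e-07). The late libraries lay around the day 0 range of 249–281 CPM, and its highest level was on day 2, at 1040.0–1124 CPM. Sdf2l1, Pdia6 and Manf, further folding factors, fell by 1.18, 1.05 and 1.01 log2.

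Sterol and sugar metabolism moved downward with exceptions in glycolysis. Of 25 cholesterol and fatty acid synthesis genes 22 fell and 0 rose (median -0.74 log2), with Cyp51, a demethylase of sterol synthesis, from 24.3–32.9 to 7.69–9.2 CPM, and Fdps, which makes farnesyl diphosphate, and the sterol sensor Insig1 lower by 1.28 and 1.27 log2. Of 23 glycolysis and hypoxia genes 15 fell and 2 rose. Pkm, pyruvate kinase, fell by 1.41 ± 0.0743 log2 and hexokinase 2 (Hk2) by 1.46, whereas hexokinase 1 (Hk1), the hexokinase of red cells, rose by 1.94 ± 0.0953 log2, from 36.7–41.2 to 130.1–185 CPM (adjusted p = 2.21e-08). The other riser was Ndrg1 (1.12 log2). Of the 13 mitochondrially encoded genes 10 fell, mt-Nd2 by 0.71 and mt-Co3 by 0.44 log2. That count was 5 when all 16 libraries entered the fit.

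The red cell membrane and globin lists had the largest median rises of the 43 lists, at 6.21 and 5.50 log2. In the erythroid transcription factor and receptor list 12 of 13 members rose and 0 fell, with a median of 2.72 log2. Klf1, the factor that switches on adult globin genes (chromosome 8, 84901928 to 84905291), read 2.05 and 0.889 CPM in the wild type and 0.671 and 2.1 CPM in the knockout on day 1. On day 5 it read 63 and 73.3 CPM (wild type) and 119 and 76.6 CPM (knockout). The late libraries all lay far above the highest early one, a rise of 5.82 ± 0.405 log2 (adjusted p = 4.21e-05), and day 0 stood at 2.04–5.82 CPM. Gata1, which commits progenitors to the red cell and megakaryocyte lines, rose from 1.47–2.56 to 39.9–64.3 CPM (4.62 ± 0.221 log2). Tal1, its partner, rose from 1.17–2.98 to 72.3–128 CPM, and the erythropoietin receptor Epor from 0.252–1.61 to 25.2–45.5 CPM (5.30 ± 0.378 log2). The member that did not pass was Bcl11a, a repressor of fetal globin (0.18 log2, adjusted p = 0.128).

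Genes of the red cell membrane and its skeleton rose without exception: 22 of 22 members were called, from 1.68 to 7.34 log2, and each was also called within either genotype alone. All 4 late libraries lay above all 4 early ones for each. Slc4a1, the anion exchanger band 3 (chromosome 11, 102348824 to 102365280), read 18.8 and 5.36 CPM in the wild type and 4.22 and 18.7 CPM in the knockout on day 1. On day 5 it read 1254 and 955 CPM in the wild type and 2356 and 1779 CPM in the knockout. Each early group held 1 low and 1 high library, and the late libraries were far above all of them (a 128-fold rise, with an SE of 0.762 log2, adjusted p = 5.37e-04). Sptb, beta-spectrin, rose from 1.61–5.41 to 399–843 CPM, 162-fold, and Dmtn, dematin, which ties actin to the membrane, by 7.14 ± 0.423 log2. The summed level of the list was 113 to 166 CPM in the early libraries and 3503 to 7267 CPM in the late ones.

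Globin and other erythroid cytoplasmic genes rose in 11 of 12 tested members. Hba-a1, alpha-globin, whose reads may be split with its near-identical copy Hba-a2, read 110.1 and 36.9 CPM in the wild type and 28.2 and 90.9 CPM in the knockout on day 1, and 2702 and 1643 CPM (wild type) and 4891 and 3817 CPM (knockout) on day 5 (5.54 ± 0.701 log2, adjusted p = 0.00104). The late levels exceeded day 0, at 118–375 CPM. Hbq1b, theta-globin, rose by 6.81 log2, Hemgn, a nuclear protein of red cell progenitors, by 6.30 and the E3 ligase Trim10 by 6.25, while the embryonic globin Hba-x, with no count on day 1 and 0.0262–1.53 CPM on day 5, did not pass (adjusted p = 0.0569). Of 28 genes that make haem or handle iron, 23 rose and 2 fell. Alas2, the first enzyme of haem synthesis in red cells (chromosome X, 150547375 to 150570638), read 8.58 and 2.64 CPM in the wild type and 2.06 and 7.2 CPM in the knockout on day 1, and 221 and 148 CPM (wild type) and 360.4 and 299.6 CPM (knockout) on day 5 (5.58 ± 0.628 log2, adjusted p = 6.20e-04). The housekeeping enzyme of the same step, Alas1, fell by 0.61 log2, and the haem exporter Flvcr1 by 0.39. Ferrochelatase (Fech) rose by 4.19 ± 0.212 log2, the transferrin receptors Tfrc by 2.75 and Tfr2 by 4.13, and the endosomal iron reductase Steap3 by 3.91. Hmox1, which degrades haem, was at 20.4–41.8 CPM early and 30.2–37.7 CPM late (adjusted p = 0.803), and Ftl1, ferritin light chain, at 450.4–551 and 474–516 CPM (adjusted p = 0.909). The membrane, globin and haem lists together, 65 genes, took 0.195 to 0.284% of the counts of kept transcripts on day 1 and 2.09 to 4.91% on day 5.

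Genes of terminal red cell maturation rose in 9 of 10 members, with Trim58, which helps expel the nucleus, from 0.323–0.574 to 10.1–24.8 CPM, the ubiquitin ligase Ube2o higher by 2.54 log2, the nuclear exporter Xpo7 by 2.48 and the survival factor Bcl2l1 by 2.43. Erythropoietin and BMP signalling genes were mixed, with 5 of 14 higher and 3 lower. Erfe, erythroferrone, the hormone by which red cell precursors lower hepcidin, rose from 0.0827–0.224 to 3.27–6.75 CPM (5.32 ± 0.375 log2, adjusted p = 1.05e-06), and the STAT5 target Cish by 1.38 log2. Socs2, another STAT5 target, fell by 1.99 log2 and Socs3 by 1.69. Kitl, stem cell factor, rose (1.74 log2, adjusted p = 0.00822) and Gdf15 fell (-2.15 log2, adjusted p = 0.005), both from levels under 2 CPM. Neither was called without the day 1 wild type libraries, at an adjusted p of 0.124 for Kitl and 0.220 for Gdf15. Bmp4 had too few counts to test, with at most 0.0497 CPM in any library.

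**Figure D2:**
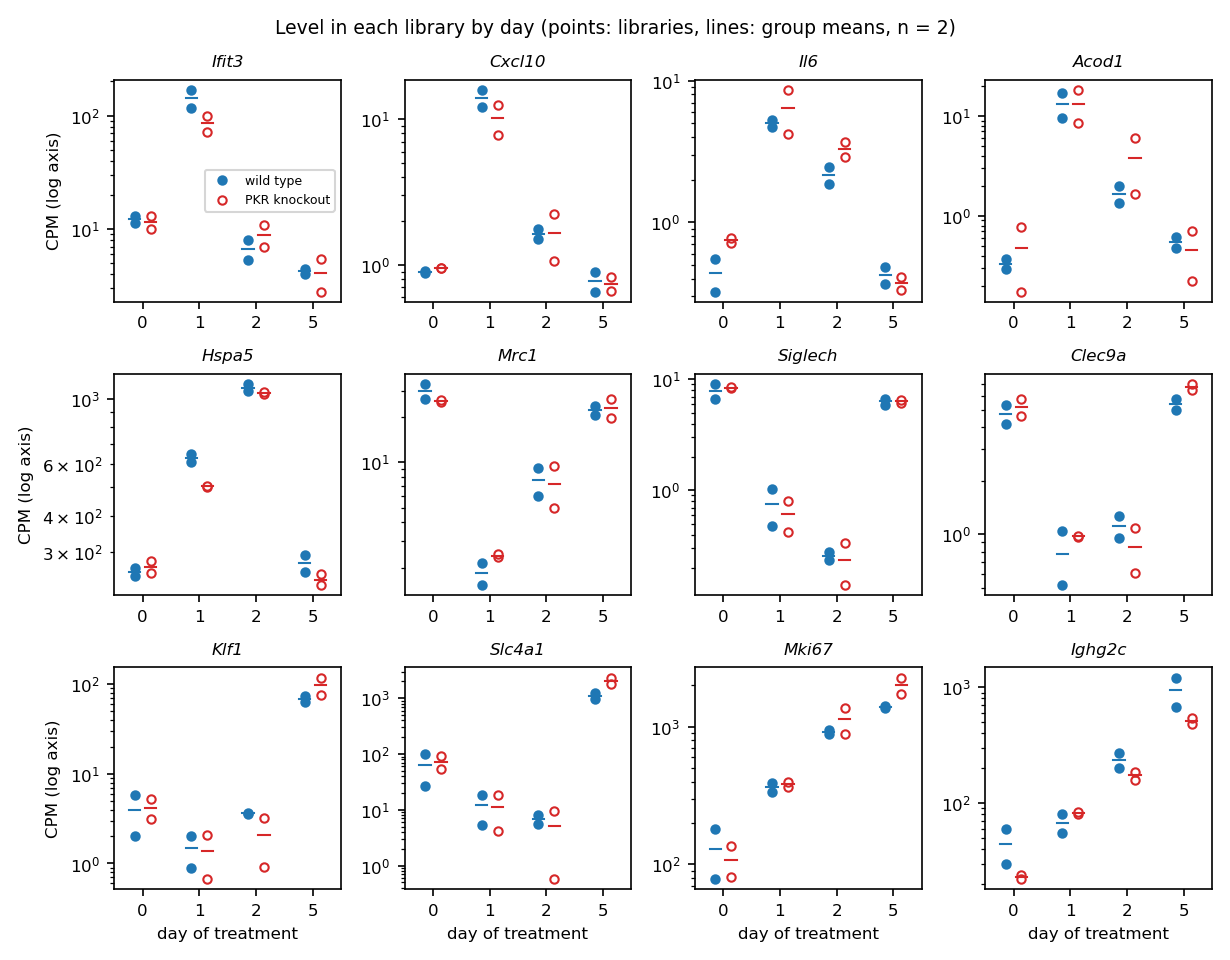
CPM (log axis) of 12 genes by day of treatment, including the untreated day 0 and day 2, with a point per library (filled blue, wild type; open red, PKR knockout) and a line at each group mean of 2 libraries. Ifit3, Cxcl10, Il6 and Acod1 are highest on day 1, Hspa5 on day 2, and Klf1, Slc4a1, Mki67 and Ighg2c on day 5, while Mrc1, Siglech and Clec9a are low on day 1 and higher on day 5.

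The 15 largest rises under the rule for named genes were not all textbook red cell genes. Pdia2, a protein disulfide isomerase, Tac2, the neurokinin B precursor, and Rnf212, a meiotic recombination factor, had no count in any day 1 library. They read 4.49–6.48, 1.08–4.11 and 1.12–2.73 CPM on day 5, at least 94.2-fold, 39.7-fold and 30.7-fold higher with a floor of 3 counts per library. Ache, acetylcholinesterase, which red cells carry on their surface, rose from 0.0425–0.0827 to 9.45–23.5 CPM, and Gfap, an intermediate filament known from astrocytes, from 0.0165–0.0497 to 4.49–8.91 CPM, or 206-fold and 206-fold. Slc2a4, the insulin-regulated glucose transporter, rose by 7.59 log2, the long noncoding RNA Redrum by 7.58, Pkhd1l1 by 7.50, Samd11 by 7.36, the butyrophilin-like Btnl10 by 7.34 and the fructosamine kinase Fn3k by 7.25. For 13 of the 15 genes the knockout day 5 libraries both exceeded both wild type ones, and the genotype difference in the change was called for none of the 15. Podxl, podocalyxin, rose by 7.17 ± 0.542 log2 with 5.91 and 17.4 CPM in the wild type and 7.17 and 4.82 CPM in the knockout on day 5. Mir8116, a short microRNA locus counted in a library made for long RNA, rose by 7.08 log2, and reads of an overlapping host transcript cannot be told apart from it.

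Megakaryocyte and stem cell genes rose beside the red cell genes. Of 20 megakaryocyte and platelet markers 17 rose and 0 fell. Vwf, von Willebrand factor, rose from 0.65–1.23 to 10.5–19.6 CPM (3.98 ± 0.18 log2), the platelet receptor parts Gp9 and Gp1ba by 3.31 and 3.04 log2, and Itga2b, integrin alpha IIb, by 1.89. Pf4, platelet factor 4, read 0.628 and 0.597 CPM (wild type) and 0.721 and 1.1 CPM (knockout) on day 1 and 1.55 and 1.12 CPM (wild type) and 2.01 and 1.62 CPM (knockout) on day 5, a smaller rise of 1.05 log2 with groups just apart. Of 14 stem and progenitor genes 11 rose and 1, Slamf1, fell. Kit, the receptor of stem cell factor, rose from 3.4–6.28 to 14.7–20.5 CPM, Adgrg1 by 2.63 log2, Tek by 2.61 and Muc13 by 2.03. Hoxa9 rose by 2.83 log2 from at most 0.149 CPM, but was not called without the day 1 wild type libraries (adjusted p = 0.0971).

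Cell division genes were higher late in a graded way. Of 38 mitosis genes 37 rose and 1, the securin Pttg1, fell, with a median of 1.21 log2. Mki67 read 337 and 388 CPM in the wild type and 366 and 399.8 CPM in the knockout on day 1, and 1428 and 1360.0 CPM (wild type) and 2285 and 1742 CPM (knockout) on day 5 (2.17 ± 0.118 log2, adjusted p = 7.63e-08). Early libraries were close together, at 337–399.8 CPM, and already above day 0, at 78.1–179.9 CPM. Red cell genes rose in the same libraries, and their part in the rise of division genes was not tested. The spindle and cytokinesis genes Cenpf, Anln and Aspm rose by 2.24, 2.17 and 1.85 log2. DNA replication genes rose less: 25 of 41 were called higher and 1, Rfc3, lower, with a median of 0.37 log2. By limma on log2(FPKM + 1) 11 of them were called higher and 3 lower. The origin licensing factor Cdc6 rose by 1.29 log2, the cyclins Ccne1 and Ccne2 by 1.28 and 1.39 and thymidine kinase Tk1 by 1.31. Replication-dependent histone genes rose in 24 of 26 members, with a median of 1.28 log2. H1f1 rose from 108–129.5 to 320.3–541 CPM and H4c2 by 1.71 log2, while H3c8 (adjusted p = 0.0503) and H3c14 (adjusted p = 0.121) did not pass. Histone copies are near-identical. Most of their transcripts have no poly(A) tail, and these ribosomal RNA-depleted libraries keep such RNA.

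**Figure D3:**
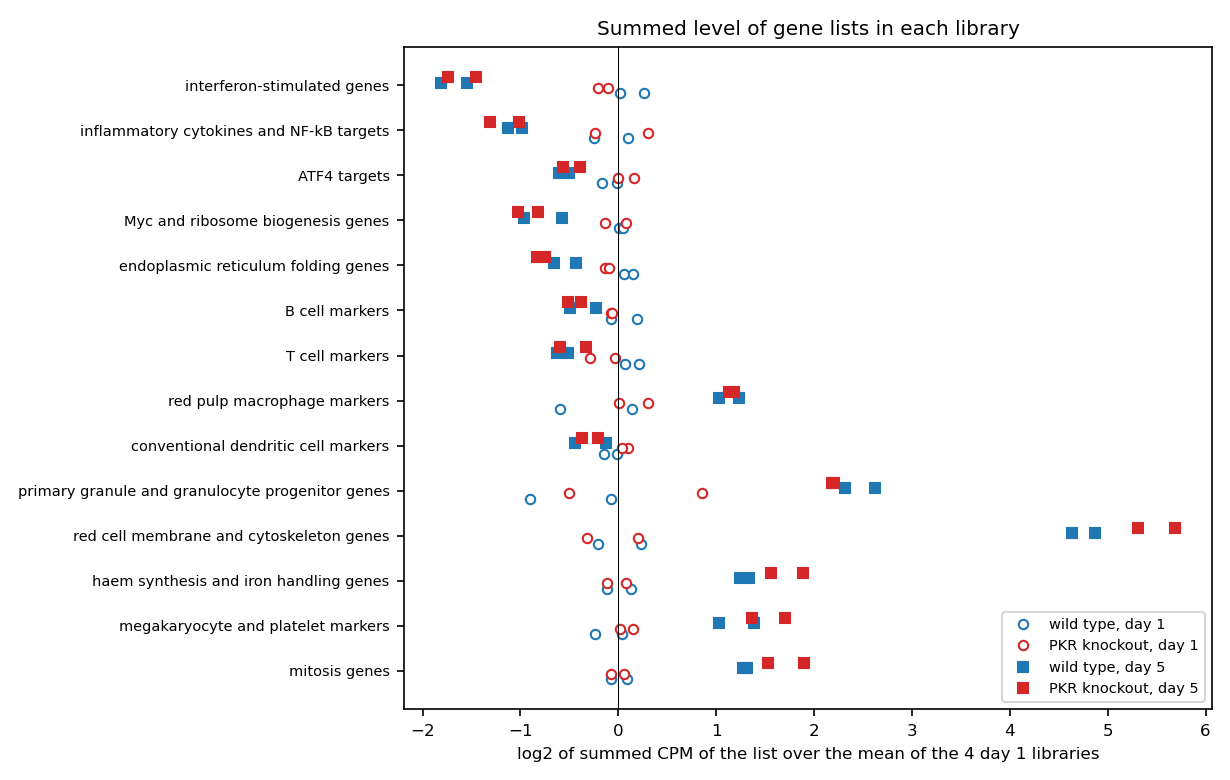
Summed CPM of 14 lists in each of the 8 libraries, as log2 over the mean of the 4 day 1 libraries, with open circles for day 1, filled squares for day 5, blue for the wild type and red for the PKR knockout. The red cell membrane list, at 3503 to 7267 CPM in the late libraries, lies highest above the early mean of the 14 lists plotted, which leave out the globins, and interferon-stimulated genes, at 1219 to 1565 CPM, lie below it in every late library.

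Red pulp macrophage markers rose in 19 of 24 tested members and fell in 1, the Fc receptor Fcgr1 (-1.57 log2). Mrc1, the mannose receptor, read 2.15 and 1.52 CPM in the wild type and 2.36 and 2.44 CPM in the knockout on day 1, and 23.7 and 20.8 CPM (wild type) and 26.4 and 19.7 CPM (knockout) on day 5 (3.44 ± 0.142 log2, adjusted p = 9.96e-09), against 25.2–33.3 CPM untreated. Cd163, the haemoglobin scavenger receptor, rose 22.4-fold to 2.73–4.39 CPM, Hpgd, which inactivates prostaglandins, by 3.37 log2, and Itgad, integrin alpha D, from 1.51–7.52 to 30.4–38.7 CPM. Vcam1, which tethers red cell precursors to macrophages, rose from 8.76–11 to 68.8–85.8 CPM (2.94 ± 0.0979 log2), and the iron exporter Slc40a1, ferroportin, from 15.9–30.8 to 68.8–75.1 CPM. Spic, the factor that defines these macrophages, read 10.1–14.6 CPM early and 14.5–15.7 CPM late and was not called (adjusted p = 0.201). Of 6 tested marginal zone macrophage markers 3 rose and 3 fell. The lectin Cd209d was at 0 in 3 of 4 early libraries and reached 0.138–0.476 CPM late, and Fcna, ficolin A, rose by 2.75 log2. Siglec1, the sialic acid receptor CD169, which interferon also induces, fell by 2.66 ± 0.313 log2 and the scavenger receptor Msr1 by 2.50.

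Conventional dendritic cell markers rose in 12 of 18 members and fell in 3, among the latter Irf8 (-0.69 log2). Clec9a, the dead-cell receptor of cross-presenting cells, read 1.04 and 0.517 CPM in the wild type and 0.969 and 0.978 CPM in the knockout on day 1, and 5.75 and 4.97 CPM (wild type) and 6.43 and 6.98 CPM (knockout) on day 5 (2.79 ± 0.186 log2, adjusted p = 2.00e-07). Xcr1, the chemokine receptor of the same cells, rose by 2.76 log2, Cadm1 by 2.13 and Cd209a from 0–0.17 to 1.21–1.9 CPM, below its day 0 level of 5.26–9.12 CPM. More members rose than fell, and the summed level of the list was 685 to 812 CPM early and 557 to 692 CPM late. Ccr7, the receptor that leads activated dendritic cells and T cells to lymphoid zones, fell from 60.5–87.6 to 21.9–27.5 CPM (-1.61 ± 0.115 log2). Plasmacytoid dendritic cell markers were split, 4 of 10 higher and 5 lower, or 3 and 3 without the day 1 wild type libraries. Siglech read 1.02 and 0.477 CPM in the wild type and 0.795 and 0.425 CPM in the knockout on day 1, and 6.72 and 5.94 CPM (wild type) and 6.1 and 6.57 CPM (knockout) on day 5 (3.23 ± 0.228 log2, adjusted p = 4.07e-07). Runx2, a factor of these cells, rose by 1.77 log2, and the kallikrein Klk1 fell by 4.24, while Tcf4, the defining factor, changed by -0.17 (adjusted p = 0.0476).

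Monocyte markers rose in 6 and fell in 2 of 14. The risers included Cx3cr1, Ace and Adgre4, markers of nonclassical monocytes (2.27, 2.17 and 1.75 log2), and fibronectin Fn1 (2.53). The fallers were Ly6c2, a marker of classical monocytes that interferon induces (-1.79 log2), and Plac8 (-1.95 log2, from 368–462 to 85.2–125 CPM). Neutrophil genes divided by stage. Of 9 primary granule and granulocyte progenitor genes 8 rose and 1, the factor Gfi1, fell. Mpo, myeloperoxidase, read 6.25 and 2.53 CPM in the wild type and 4.37 and 17.1 CPM in the knockout on day 1 and 57 and 67.4 CPM (wild type) and 52.8 and 49.7 CPM (knockout) on day 5 (3.02 ± 0.613 log2, adjusted p = 0.00753). The proteases Elane and Ctsg rose by 3.06 and 2.88 log2. The second day 1 knockout library held the highest early level of Mpo, Elane and Ctsg, and without the day 1 wild type libraries 5 of the 9 genes were called, with Mpo at an adjusted p of 0.0796 and Ctsg at 0.0651. Of 23 mature neutrophil markers 10 fell, including the chemokine receptor Cxcr2 (-2.04 log2), and 6 rose. Ltf, Camp and Ngp, secondary granule genes, had log2 changes of 1.97, 1.88 and 1.77 with 20.9 and 72.9 CPM of Ltf in the early knockout libraries. Their calls were lost when any of 5 or 6 single libraries was left out, and without the day 1 wild type libraries 1 mature marker was called higher and 13 lower. Basophil, mast cell and eosinophil markers rose in 9 of 18 and fell in 1, Hdc (-1.75 log2). Ear2, an eosinophil ribonuclease, rose by 2.34 log2, the chemokine receptor Ccr3 by 2.19 and the basophil protease Prss34 by 2.22. Epx, eosinophil peroxidase, rose by 2.16 log2 but was not called without the day 1 wild type libraries (adjusted p = 0.0776).

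B cell markers fell in 12 of 23 members and rose in 3. The coactivator Pou2af1 fell from 284–326 to 98.4–119 CPM (-1.5 ± 0.0752 log2, adjusted p = 2.43e-08), the complement receptor Cr2 by 0.94 log2 and the adaptor Blnk by 1.13. The risers were Fcer2a (0.38 log2), Bach2 (0.52) and H2-Ob (0.53). Of 24 plasma cell markers 10 rose and 6 fell. Ighg2c, the IgG2c heavy chain constant region, read 80.1 and 55.3 CPM in the wild type and 80.4 and 84.4 CPM in the knockout on day 1, and 672 and 1213 CPM (wild type) and 483 and 539.6 CPM (knockout) on day 5 (3.22 ± 0.346 log2, adjusted p = 3.30e-04). Ighg1 rose by 2.94 log2, Igha by 1.84 and Tnfrsf17, the plasma cell survival receptor BCMA, by 2.95. The regulators Irf4, Prdm1 and Xbp1 fell by 1.69, 1.38 and 0.59 log2, and Ighm did not pass (0.24 log2, adjusted p = 0.0699). Without the day 1 wild type libraries 5 rose and 7 fell, and by limma on log2(FPKM + 1) 13 fell. Within the knockout 4 plasma cell markers rose and 8 fell, against 10 and 6 within the wild type. No plasma cell marker was called for a difference between the genotypes in the change. As a sum, plasma cell markers peaked on day 2, at a mean of 35520.0 CPM in the wild type, against 7695 CPM on day 1 and 12020.0 CPM on day 5. Germinal centre markers were mixed, 5 of 12 higher and 3 lower, or 2 and 3 without the day 1 wild type libraries. Gcsam, an adaptor of germinal centre B cells, rose by 2.23 log2, while Fas fell by 0.93.

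T cell markers fell in 19 of 29 members and rose in 0, but the genotypes differed in their counts. Within the wild type 22 fell and 0 rose. Within the knockout 5 fell and 2 rose, the same counts as without the day 1 wild type libraries. Ccr7, Tcf7, Cd3d and Trbc1 fell by 1.61, 0.88, 0.83 and 0.71 log2, of which Trbc1 was not called without those libraries (adjusted p = 0.0825). Cd3e read 14.8 and 18.1 CPM in the wild type and 13.6 and 11.9 CPM in the knockout on day 1, and 13.5 and 11.8 CPM (wild type) and 11.9 and 13.6 CPM (knockout) on day 5, with overlapping groups (adjusted p = 0.148). All libraries of both days lay under its day 0 level of 30.2–31.9 CPM. Among regulatory T cell and checkpoint genes 5 of 14 fell, with the activation receptors Tnfrsf4 and Il2ra lower by 1.05 and 0.99 log2, and 2 rose, Havcr2, which macrophages and dendritic cells also express, by 1.38 and Gpr83 by 0.56. Of 23 cytotoxic T and NK cell markers 6 fell, 3 rose and 14 were not called, with a median of -0.11 log2. The share that fell was near the 28.1% over all genes, so the falls below describe single members. By limma on log2(FPKM + 1) 13 fell, where 7449 of all 17887 genes were called lower. Granzyme B (Gzmb) fell from 21.2–35.1 to 7.67–12.8 CPM (-1.66 ± 0.146 log2), Gzma by 1.24 log2 and the factor Tbx21 by 0.83, whereas the NK receptor Klra8 rose by 0.79.

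Endothelial and stromal markers, present at low levels in a mesh-filtered suspension, rose in 16 of 22 tested members and fell in 3. Stab2, the scavenger receptor of sinus endothelium, rose from 0.909–1.74 to 11.7–18.4 CPM (3.58 ± 0.183 log2), the niche chemokine Cxcl12 by 3.42 log2, the collagen Col1a1 by 2.98 and endoglin (Eng) by 2.71. The fallers were Kdr (-1.22 log2), Acta2 (-1.12) and Tagln (-1.10). Of 7 tested epithelial-type genes 2 rose and 2 fell. The protocadherin-like Cdhr2 rose from 0.81–2.51 to 27.9–32.2 CPM, against 0–0.139 CPM on day 0, and the claudin Cldn2 by 1.72 log2, while occludin (Ocln) fell by 2.60 and Tmed6 by 0.60. Stress response genes were mixed. Of 14 immediate-early genes 9 fell, including Nr4a3 (-1.61 log2), and 2 rose, Nr4a1 (0.93) and Egr3 (0.47). Of 10 glucocorticoid-responsive genes 4 rose and 3 fell, beside shares of 30.2% and 28.1% over all genes. The metallothioneins Mt2 and Mt1 were higher by 3.47 and 2.85 log2 and Klf9 by 2.00. Of 14 clock genes 6 rose and 3 fell, with Ciart lower by 1.5 log2, Bhlhe41 higher by 1.00 and the core genes Per2 (adjusted p = 0.492) and Arntl (adjusted p = 0.135) not called. Nr1d1 rose by 1.35 log2, but was not called without the day 1 wild type libraries (adjusted p = 0.105).

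Both genotypes showed a broad late against early change. Within the wild type 4556 genes rose (25.5%) and 3941 fell (22.0%), 47.5% in all, and within the knockout 4049 rose (22.6%) and 3711 fell (20.7%), 43.4% in all. Of the risers 3313 were called in both, which is 72.7% of the wild type list and 81.8% of the knockout list, and of the fallers 2948, which is 74.8% and 79.4%. The genotypes share no library, and 6 genes were called higher in the wild type and lower in the knockout and 3 the reverse. A difference between the genotypes in the change itself was called for 9 genes (0.0503%), 3 more positive (0.0168%) and 6 more negative (0.0335%) in the knockout, and 1690 had an unadjusted p under 0.05. DESeq2 called 79 and 74, and limma on log2(FPKM + 1) called 0 and 0. Named after their values were seen, they included Cdhr2, Nxpe2, Rnf157, the RNA component of the RNase MRP complex Rmrp, and the predicted genes Gm25395, Gm37033, Gm38365 and Gm45191. Cdhr2 read 0.81 and 0.889 CPM in the wild type and 1.86 and 2.51 CPM in the knockout on day 1, and 32.2 and 28.1 CPM against 27.9 and 28.3 CPM on day 5. Nxpe2 averaged 10.8 CPM in the wild type and 7.69 CPM in the knockout on day 1, and 72.7 and 128 CPM on day 5. For the red cell genes the knockout day 5 libraries were higher, as the values of Slc4a1, Hba-a1 and Alas2 above show, and no member of the red cell membrane list was called for a difference.

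**Figure D4:**
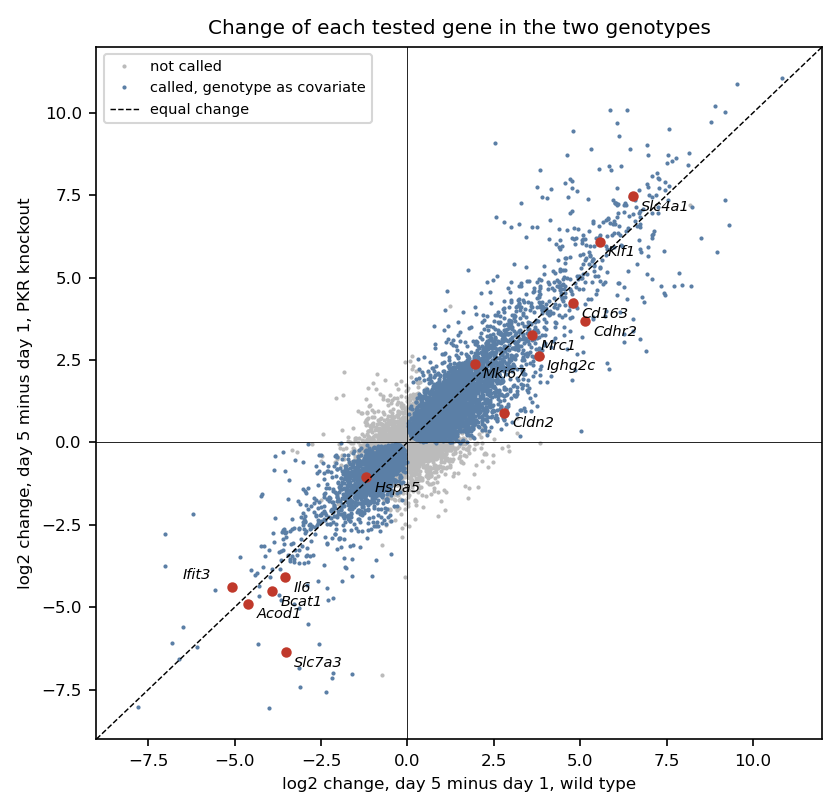
Log2 change from day 1 to day 5 of each of the 17887 genes tested, in the wild type (x axis) and in the PKR knockout (y axis), with genes called in the comparison of both genotypes in blue, others in grey, and 14 named genes in red; the dashed line marks equal change. Red cell genes such as Slc4a1 and Klf1 lie at the upper right near the line and Ifit3, Il6 and Acod1 at the lower left.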

How the data were processed

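RNA of 16 spleen libraries, 2 per genotype and day, was sequenced after ribosomal RNA depletion, and 8 of them entered the comparison. Per the file headers, the deposited files hold for each transcript a fragment count and an FPKM value. Per the submitters' processing notes the build was mm10, with bcl2fastq 2.17.1.14, Trimmomatic, HISAT2 and TopHat named; which counter and annotation made the counts is not given in the sources used here. Deposited counts add up to more than the total fragments, so 1 transcript per gene symbol was kept: that of highest mean count among protein-coding transcripts of GENCODE M21 where there were any, and otherwise among all. The deposited FPKM values were used for tissue markers and in an alternative.

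The test was edgeR 4.0.16 (R 4.3.3), quasi-likelihood with robust dispersion, TMM factors and filterByExpr, genotype plus day as the design, with 5 residual degrees of freedom and Benjamini-Hochberg adjustment over all 17887 genes. Within-genotype and difference tests used 1 mean per group. An error after ± is a standard error of a log2 change. In the tests with 1 mean per group, p-values measure the spread between pools of 2 mice. In the main fit the residual spread also holds any difference between the genotypes in the change. The p-values and standard errors of that fit therefore reflect both. With 1 mean per group and both genotypes averaged, 5524 genes were higher and 5113 lower. The group lists and members were chosen with earlier results of these data known. Named genes were the 15 largest called rises and falls with a mean of at least 1 FPKM on the higher day and all 4 libraries of 1 day above all 4 of the other (leaving out predicted genes, variable receptor segments, pseudogenes and histones), the 4 largest called changes of each of 43 lists, a panel of 28 genes and the exceptions of lists. Alternatives were DESeq2 1.42.0 and its size factors, limma 3.58.1 on log2(FPKM + 1), other filters and transcript choices, all 16 libraries, a GC correction, a replicate block and leaving out libraries. The fits were tested on simulated data. The day 0 and day 2 libraries served for levels alone. Some members that the rule names are not reported here.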

Additional observations from a re-analysis of the deposited data

Results flagged for a closer look

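Cdhr2, a protocadherin-like gene of epithelial brush borders, was picked out because its change from day 1 to day 5 differed between the genotypes in the test of the difference itself. The log2 change was 5.14 in wild type mice and 3.67 in knockout mice, a difference of -1.467 (edgeR, adjusted p = 0.0423), and it was higher on day 5 in every library of both genotypes. The genotypes differed on day 1, at 0.81 and 0.889 CPM in the wild type and 1.86 and 2.51 CPM in the knockout, while on day 5 they read 32.2 and 28.1 CPM against 27.9 and 28.3 CPM. Over 19 alternatives the difference ranged from -1.66 to -0.466, passed the threshold in 5, and had an adjusted p between 1.97e-07 and 0.617. The lower early level is that of the day 1 wild type libraries, which stand apart from the others, and their part in the difference was not tested.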

How the results depend on the processing

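The counts over all genes, 5400 higher and 5020 lower on day 5 with genotype as covariate, were within 1.5 times under the alternatives run. DESeq2 gave 5283 and 4852, no filter 5729 and 5425, a minimum of 1 FPKM in 4 libraries 3972 and 3942, all 16 libraries 5151 and 5004, and a GC correction 5752 and 4657. Leaving out single libraries gave 4943 to 5246 higher and 4578 to 4869 lower. Leaving out both day 1 wild type libraries, so that the knockout alone is compared, gave 4071 and 3559. Of these, 3954 and 3414 were among the genes given. Limma on log2(FPKM + 1), which changes the test, unit, pseudocount and scaling together, gave 3674 and 7449, and within the wild type 2900 and 7009. It also turned the sign of 5 list medians: to -0.0153 for the eIF2alpha kinase list, -0.0044 for clock genes, -0.267 for marginal zone macrophages, -0.183 for plasmacytoid dendritic cells and -0.102 for erythropoietin and BMP signalling. Among other alternatives the medians of the plasma cell, plasmacytoid, marginal zone and epithelial-type lists also changed sign, each lying within 0.1 of 0 after the turn. The cause was not tested.

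Genes with a genotype difference in the change, 3 more positive and 6 more negative in the knockout, varied most: 79 and 74 by DESeq2, 0 and 0 by limma, 275 and 179 without a filter, 1 and 2 with all transcripts summed, and 1 and 0 with all 16 libraries. Leaving out single libraries gave 1 to 133 more positive and 2 to 43 more negative, with 133 and 43 without the second day 5 knockout library and 6 and 35 without the first day 1 wild type library.

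Same-numbered libraries did not deviate in the same direction (correlations of -0.329 to 0.0679 over 6 pairs of groups), so the replicate numbers do not pair them. The strongest were negative and between the genotypes of 1 day, at -0.329 on day 1 and -0.284 on day 5. With 2 libraries a group, a negative value means that libraries of unlike number deviated in the same direction. Whether those libraries share a batch was not tested, and a block on the number does not join them. With the number as a block 5130 genes were higher and 4815 lower, and 1 and 1 differed between genotypes, which a GC correction added to the block left at 1 and 1. Not every named gene was tested in all 21 alternatives: Podxl was tested in 20 and Ccl7 in 19. Of 202 named genes tested, 182 kept their call and direction in every alternative that tested them. A further 14 lost the call in some, 6 gained one and 0 reversed. Ppp1r15a lost it in 9, Ltf and Camp in 7, Ngp in 6, Dbp in 1 with transcripts of any type, and Trbc1, Mpo, Ctsg, Epx, Gdf15, Kitl, Hoxa9, Nr1d1 and Ddit3 without both day 1 wild type libraries. The genes that gained a call were Ifng, S100a8, S100a9, Lcn2, Cd3e and Ighm. Depth limits Il17a, Il17f, Il22, Il23a, Ifnb1 and Bmp4, whose absence from the calls says nothing about a change.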
